A study of Mus musculus with 4 samples.

Results

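The genes described here are the CD surface antigens, taken as every gene of the expression table whose only platform symbol is Cd followed by a number and optional letters, without Cd44 and Cd74. This rule uses names and no measured value. It gave 27 of the 6404 genes, measured by 38 probe sets. The cells were of the mouse line EML, lymphohematopoietic progenitors that are normally kept in stem cell factor (SCF), which binds and activates the receptor tyrosine kinase KIT. They carried a KIT mutant of mastocytosis, either Del417-419insY in the extracellular domain or D816V in the kinase domain. Expression was measured on Affymetrix mouse arrays in 4 groups of 1 array each: Del417-419insY without SCF, Del417-419insY with SCF at 250 ng/mL for 48 h, D816V without SCF, and D816V with the same SCF treatment. All 4 cultures had been transduced with a retroviral vector carrying KIT, selected with geneticin, grown without added factor until autonomous, and sorted for KIT. Each line was therefore 1 sorted population, no unmutated control is among these arrays, and no value below has a replicate.

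CD numbers are given to leukocyte surface molecules that are recognised by defined groups of antibodies, so the set joins proteins of unlike structure and function. It holds tetraspanins, which organise receptors in the membrane, chains of antigen receptors, paired activating and inhibitory receptors of myeloid cells, scavenger receptors and GPI-anchored complement regulators. In blood cells combinations of these molecules are used to tell lineages and activation states apart. The arrays measured mRNA, and surface protein was not measured. The symbols also caught Cd2bp2 and Cd3eap, which encode intracellular proteins of RNA splicing and RNA polymerase I and are no surface antigens. In a bulk culture fewer cells of a type and less RNA per cell cannot be told apart.

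Values are on the log2 scale, and each probe set has its own zero, whose source is not known, so levels of one gene can be compared between arrays and levels of different genes cannot. A difference of 1 is a factor of 2. Array medians over all probe sets lay between -0.20 and -0.02, and the D816V array with SCF stood lowest and was the most spread (SD 0.79, against 0.59 to 0.72 on the others). Of the 9 genes listed as progenitor markers, 4 were in the table. Their mean relative level was -0.57 and -0.04 in Del417-419insY cells without and with SCF, and -0.94 and -1.34 in D816V cells. The 4 genes did not move together. By mean difference between the lines Slamf1 was higher in D816V cells (1.62), and Kit (-1.42), Sox4 (-1.71) and Gfi1 (-1.82) were lower. KIT was also carried by the vector and used for sorting, and whether the Kit value includes vector transcripts was not tested. In Del417-419insY cells Gfi1 differed most with SCF, by 1.48. Relative values cannot show whether a marker is absent, so the identity of the line could not be checked with them.

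Most surface antigen genes that separated the lines were higher in D816V cells. A gene was counted where D816V differed from Del417-419insY by 2-fold or more in the same direction both without and with SCF, 2 comparisons that share no array. By this count 10 of the 27 genes were higher, against 5.15% of all 6404 genes, and 2 were lower, against 3.79% of all genes. Taken one condition at a time, 11 of the 27 genes were 2-fold or more higher without SCF, against 6.29% of all genes, and 2 were lower, against 4.2%. With SCF 10 were higher, against 6.34%, and 4 were lower, against 7.42%. The 10 higher in both conditions were Cd55, Cd200r4, Cd68, Cd93, Cd300lf, Cd81, Cd247, Cd69, Cd200r1 and Cd53, and the 2 lower in both were Cd160 and Cd1d1. The median difference over the 27 genes was 0.56 without SCF and 0.30 with SCF, where the medians over all genes were -0.08 and -0.14. The only fit with an error term was limma on genotype and SCF as additive terms over all 4 arrays. It takes the difference between the SCF responses of the lines for error, so its p-values leave out the spread between repeat arrays and between repeat populations. Its standard errors (SE) also draw on a prior over all genes. Where the SCF responses nearly coincide, as for Cd55, the SE of 0.11 comes mainly from that prior and is no measured precision. At a Benjamini-Hochberg adjusted p under 0.05 the fit called 13 of the 27 genes higher in D816V and 6 lower. Of all genes it called 17.9% higher and 24.7% lower, and 42.6% in either direction.

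**Figure D1:**
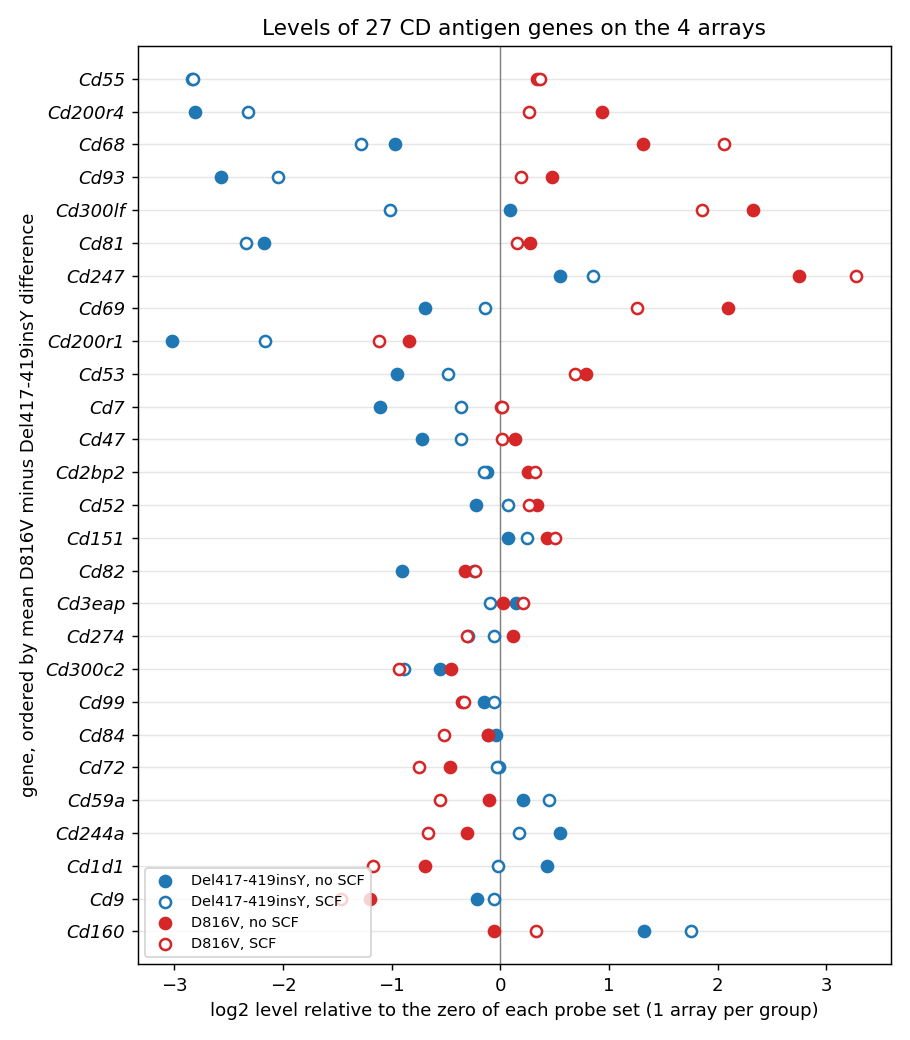
Log2 level of each of the 27 genes on the 4 arrays, relative to the zero of its probe sets, with genes ordered by the mean difference between the lines. Blue points are Del417-419insY and red points D816V, filled without SCF and open with SCF. From Cd55 to Cd53 both red points lie to the right of both blue points, and Cd160, Cd9 and Cd1d1 show the opposite order.

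Upstream sequences are shown for the gene with the largest mean difference in each direction, Cd55 and Cd160, and for Cd68 and Cd300lf, which hold a promoter motif and are among the higher genes. They come from RefSeq on build GRCm38.p6, which held a start for 20 of the 27 genes, and each gives the 250 bases before the most upstream annotated start, 5′ to 3′ on the strand of the gene. Capitals mark CCAAT in Cd68 and the reverse complement of TATAAA in Cd300lf.

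Cd55 (chr1:130462745-130462994, minus strand): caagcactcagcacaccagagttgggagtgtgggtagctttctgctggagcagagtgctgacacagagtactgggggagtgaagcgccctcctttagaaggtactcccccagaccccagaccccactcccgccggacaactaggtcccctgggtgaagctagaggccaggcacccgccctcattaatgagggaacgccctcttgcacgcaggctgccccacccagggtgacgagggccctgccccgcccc

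Cd68 (chr11:69666171-69666420, minus strand): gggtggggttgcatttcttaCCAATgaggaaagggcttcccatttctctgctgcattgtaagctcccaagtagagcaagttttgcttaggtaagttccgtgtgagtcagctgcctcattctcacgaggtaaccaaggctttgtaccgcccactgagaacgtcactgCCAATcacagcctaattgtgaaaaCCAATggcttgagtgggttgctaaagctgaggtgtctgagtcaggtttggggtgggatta

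Cd300lf (chr11:115133993-115134242, minus strand): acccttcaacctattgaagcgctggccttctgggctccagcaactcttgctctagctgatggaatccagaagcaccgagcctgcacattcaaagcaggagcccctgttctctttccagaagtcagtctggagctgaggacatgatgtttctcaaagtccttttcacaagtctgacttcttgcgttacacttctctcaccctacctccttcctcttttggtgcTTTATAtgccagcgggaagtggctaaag

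Cd160 (chr3:96829352-96829601, minus strand): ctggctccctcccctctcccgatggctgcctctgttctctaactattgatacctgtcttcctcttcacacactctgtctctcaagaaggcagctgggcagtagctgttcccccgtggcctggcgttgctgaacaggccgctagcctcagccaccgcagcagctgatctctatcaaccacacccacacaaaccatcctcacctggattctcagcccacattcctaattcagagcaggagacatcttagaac

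These windows were searched on both strands for 5 motifs: the STAT site TTCNNNGAA, the ETS site GAGGAAGT, the GATA site AGATAA, the TATA box TATAAA and the CCAAT box CCAAT. Matches of different motifs did not overlap in these windows. Of the 20 genes with a window, 7 were among the 10 higher genes. None of the 20 windows held the STAT site, which 7.14% of all 27025 windows of this length and 5.72% of the windows of the 5244 measured genes with one held. CCAAT was found in Cd68, with 3 copies, and in Cd53, beside 34.5% of all windows and 36.5% of those of measured genes. TATAAA was found in Cd300lf, from 28 to 23 bases before the start, beside 13.0% of all windows and 5.72% of those of measured genes. The ETS site was found in Cd72 (2.42% of all windows and 2.52% of those of measured genes) and the GATA site in Cd274 and Cd300c2 (10.2% and 5.84%). The windows of Cd55 and Cd81 were rich in G and C, at 64.0% and 65.6%, and that of Cd68 stood at 49.2%.

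Pattern, scavenger and lectin receptors were called higher in D816V cells in all 3 measured cases, beside 17.9% of all genes. This list was made with earlier results of these data known, so these few calls do not set the group apart. Cd68 encodes macrosialin, a lysosomal glycoprotein of macrophages. It stood at -0.97 and -1.28 on the Del417-419insY arrays without and with SCF, and at 1.32 and 2.06 on the D816V arrays. The lines lay on opposite sides of the zero, and the gap was wider with SCF: 4.89-fold without and 10.1-fold with SCF (mean log2 difference 2.81, SE 0.26, limma adjusted p = 0.0018). Cd93 encodes a C-type lectin-like receptor of early progenitors, myeloid cells and endothelium. It stood at -2.57 and -2.04 in Del417-419insY and at 0.47 and 0.19 in D816V cells, so its gap was narrower with SCF, 8.25-fold without and 4.70-fold with it (2.64, SE 0.21, limma adjusted p = 0.0012). The mean differences on its probe sets were 2.80 and 2.48. Cd69, an early activation antigen of lymphocytes and other leukocytes, stood at -0.69 and -0.14 in Del417-419insY and at 2.09 and 1.26 in D816V cells. Its difference shrank from 6.88-fold without SCF to 2.65-fold with SCF (2.09, SE 0.33, limma adjusted p = 0.0085).

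Paired receptors and their ligands set the activation threshold of myeloid and mast cells. They were called higher in 4 of 5 cases, beside 17.9% of all genes. This list too was made with earlier results known, so these few calls do not set the family apart. Cd200r4, an activating member of the CD200 receptor family, had the largest difference of the 27 genes in any one condition. It stood at -2.81 and -2.32 in Del417-419insY and at 0.93 and 0.27 in D816V cells, a gap of 13.4-fold without and 6.00-fold with SCF (3.17, SE 0.28, limma adjusted p = 0.0017). Cd200r1, the inhibitory receptor for CD200, stood at -3.02 and -2.17 against -0.84 and -1.11. All 4 values were below the zero, and the gap was 4.52-fold without and 2.07-fold with SCF, just past the 2-fold limit (1.61, SE 0.27, limma adjusted p = 0.011). The genes are direct neighbours on chromosome 16, with no protein-coding gene between them in RefSeq, and each had 1 probe set. Whether these probe sets read transcripts of their close paralogs was not tested.

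Cd300lf, an immunoreceptor of myeloid cells that binds phospholipids, stood at 0.09 and -1.01 in Del417-419insY and at 2.33 and 1.86 in D816V cells. Its gap was 4.73-fold without and 7.31-fold with SCF (2.56, SE 0.18, limma adjusted p = 8.2e-04). Its relative Cd300c2, on the same chromosome with 6 protein-coding genes between them, stood at -0.55 and -0.88 against -0.45 and -0.94, a mean difference of 0.02 that did not pass the fit. After cyclic loess scaling its differences were 0.35 and 0.51 and it was called higher. Cd300c2 was placed with the paired receptors after the table was seen. Cd47, the broadly expressed ligand of SIRPα that restrains phagocytosis, was at -0.72 and -0.36 in Del417-419insY and at 0.13 and 0.01 in D816V cells. That is 1.80-fold without and 1.29-fold with SCF (0.61, SE 0.16, limma adjusted p = 0.032), and its 3 probe sets gave mean differences from 0.44 to 0.89.

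**Figure D2:**
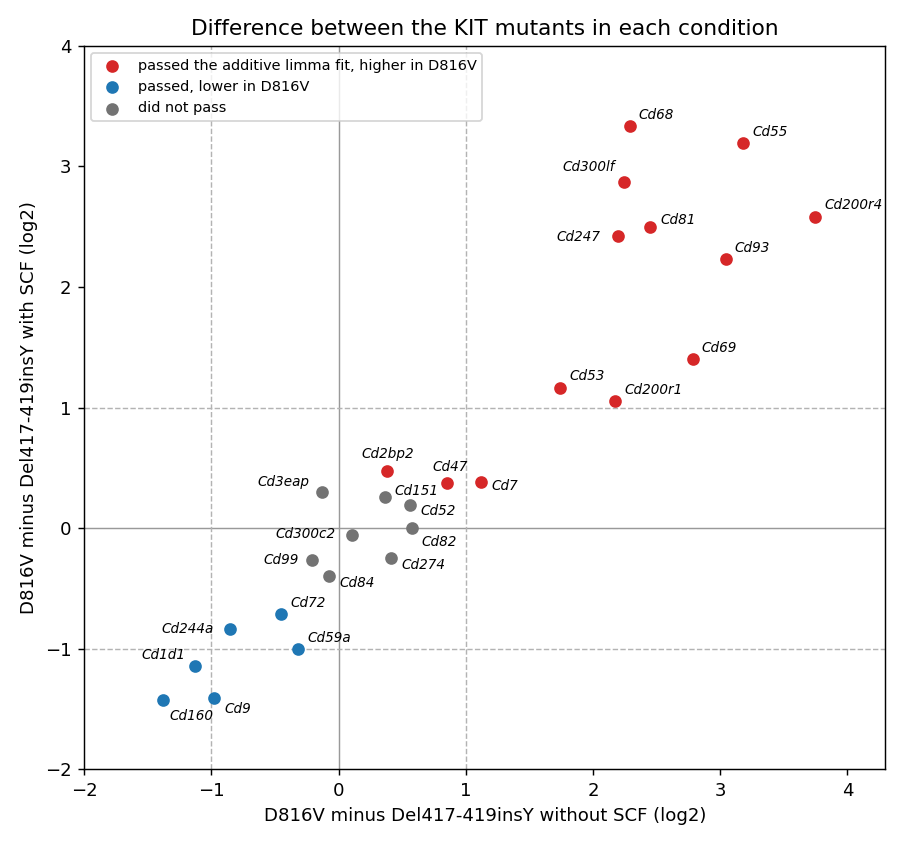
Difference between D816V and Del417-419insY for each of the 27 genes, without SCF on the horizontal axis and with SCF on the vertical axis, in log2 units. Dashed lines mark 2-fold, and colours give the call of the additive limma fit. The 10 higher genes occupy the upper right corner, Cd160 and Cd1d1 the lower left one, and Cd7 is past 2-fold without SCF but not with it.

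Of 5 tetraspanins 2 were called higher, 1 lower, and 2 did not pass; over all genes 17.9% were called higher and 24.7% lower, so these few calls do not set the family apart. Cd81, a partner of B cell and adhesion receptors, stood at -2.17 and -2.34 in Del417-419insY and at 0.28 and 0.15 in D816V cells. Its gap hardly moved with the condition, at 5.45-fold and 5.64-fold (2.47, SE 0.11, limma adjusted p = 2.7e-04). Cd53, a tetraspanin of leukocytes, stood at -0.95 and -0.48 against 0.79 and 0.69, 3.35-fold higher in D816V cells without and 2.24-fold with SCF (1.45, SE 0.17, limma adjusted p = 0.0038). One of its probe sets gave 0.86 with SCF, under the 2-fold limit, and the other 1.47. Cd9, which is abundant on megakaryocytes, platelets and mast cells, went the other way. It stood at -0.21 and -0.06 in Del417-419insY and at -1.20 and -1.47 in D816V cells, lower by 1.98-fold without and 2.66-fold with SCF (-1.20, SE 0.15, limma adjusted p = 0.0044). Cd151, a partner of laminin-binding integrins, and Cd82, a suppressor of cell motility, had mean differences of 0.31 and 0.29, which did not pass. Cd82 was called higher after cyclic loess, and Cd151 after median centring or when the probe set of highest mean stood for the gene. Cd82 differed by 0.58 without SCF and by 0.00 with SCF.

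Genes of T and NK cell receptors were few and went both ways. Cd247 encodes the zeta chain that carries the signal of the T cell receptor and of some NK cell Fc receptors. It stood at 0.55 and 0.85 in Del417-419insY and at 2.75 and 3.28 in D816V cells, with gaps of 4.58-fold and 5.37-fold (2.31, SE 0.12, limma adjusted p = 3.8e-04). After cyclic loess scaling its differences were 0.80 and 0.99, so it no longer counted as 2-fold. Of the 9 genes listed as T cell markers it was the only one in the table. Cd7, a receptor of T cells, NK cells and early progenitors, stood at -1.11 and -0.36 against 0.01 and 0.02. It was 2.17-fold higher in D816V cells without SCF and 1.30-fold with SCF (0.75, SE 0.20, limma adjusted p = 0.036), and it was no longer called without the SCF term in the fit. Cd160, a GPI-anchored receptor of NK and T cells that binds HVEM, was the most strongly lower of the 27 genes. It stood at 1.32 and 1.76 in Del417-419insY and at -0.06 and 0.33 in D816V cells, 2.61-fold and 2.69-fold lower (-1.41, SE 0.11, limma adjusted p = 0.0012). Of the other listed NK cell genes, Nkg7 had a mean difference of 0.09. Cd244, in the table as Cd244a, was called lower, at -0.85.

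Among the GPI-anchored and complement-related genes Cd55 and Cd59a differed in opposite directions, although both proteins protect cells from complement. Cd55, decay-accelerating factor, stood at -2.84 and -2.83 in Del417-419insY and at 0.34 and 0.37 in D816V cells. Its gap of 9.06-fold without and 9.15-fold with SCF gave the largest mean difference of the 27 genes (3.19, SE 0.11, limma adjusted p = 1.5e-04) and ranked as number 66 of 6404 from the top. Its probe sets differed in size, with mean differences of 2.22 and 4.16. Cd59a, an inhibitor of the membrane attack complex, stood at 0.21 and 0.45 against -0.11 and -0.55. It was lower in D816V cells by 1.25-fold without SCF and by 2.01-fold with SCF (-0.66, SE 0.19, limma adjusted p = 0.043), and it was no longer called without the SCF term. With SCF it lay just inside the 2-fold limit, at -1.01, and Cd9 without SCF just outside it, at -0.98. Cd52, a small GPI-anchored antigen of lymphocytes, had differences of 0.56 and 0.19 and did not pass, although it was called higher after each of the 3 other scalings.

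The remaining antigens included no gene higher in D816V cells by the fit. Cd1d1 encodes the molecule that presents lipids to NKT cells. It stood at 0.43 and -0.02 in Del417-419insY and at -0.70 and -1.17 in D816V cells, 2.18-fold and 2.21-fold lower (-1.13, SE 0.11, limma adjusted p = 0.0024). After cyclic loess scaling, quantile normalization and median centring at least one of its differences was under 2-fold, the smallest being -0.83. One of its probe sets carries the suffix for probes shared by several transcripts, and Cd1d2 is a near-identical copy, so the value may be that of both. Cd244a, the SLAM family receptor 2B4 of NK and mast cells, stood at 0.55 and 0.18 against -0.30 and -0.66, 1.81-fold and 1.79-fold lower (-0.85, SE 0.11, limma adjusted p = 0.0057). A further gene of the SLAM cluster on chromosome 1, Cd84, an adhesion receptor of mast cells and platelets, had differences of -0.08 and -0.40 and did not pass. Cd72, an inhibitory receptor of B cells, was lower by 1.37-fold and 1.64-fold (-0.58, SE 0.13, limma adjusted p = 0.021). Cd274, the checkpoint ligand PD-L1, differed by 0.41 without SCF and -0.25 with SCF, and Cd99, an adhesion molecule, by -0.21 and -0.27; neither passed. Of the intracellular proteins Cd2bp2 was called higher (0.43, SE 0.12, limma adjusted p = 0.037) and Cd3eap did not pass (0.09).

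The 10 higher genes reached their gap in different ways relative to the zero of their probe sets. For Cd55, Cd200r4, Cd93, Cd81 and Cd200r1 both Del417-419insY arrays lay at -2.04 or lower, while the D816V arrays lay between -1.11 and 0.93. For Cd247, Cd300lf and Cd69 the D816V arrays stood out instead, at 1.26 to 3.28, with Del417-419insY between -1.01 and 0.85. Cd68 and Cd53 fell in neither group, with Del417-419insY below the zero and D816V above it. That order of signs was not particular to them, since Cd55, Cd200r4, Cd93, Cd81 and Cd69 had it too. Since the source of the zero is not known, these positions do not say in which line a gene had moved.

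All 8 genes with more than 1 probe set had the same sign of the mean difference on each of their probe sets. The other 19 genes rested on 1 probe set each. Over both conditions 24 of the 27 genes kept the sign of the difference between the lines, or 88.9%, which is close to the 84.8% of all genes.

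**Figure D3:**
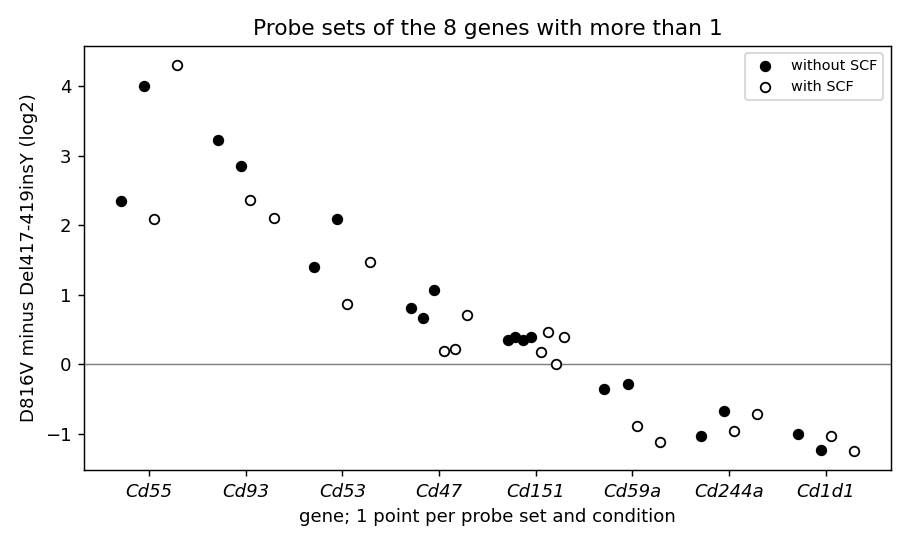
Difference between D816V and Del417-419insY on every probe set of the 8 genes measured more than once, in log2 units, filled without SCF and open with SCF. The probe sets of Cd55 lie far apart, at 2.08 to 4.31, and those of Cd1d1 close together, at -1.25 to -1.01.

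Other genes that carry a CD number under another symbol went both ways. Of 115 such genes listed, 50 were in the table; limma called 19 higher and 16 lower, beside 17.9% and 24.7% of all genes. By 2-fold or more in both conditions 8 were higher and 7 lower, beside 5.15% and 3.79% of all genes. The median of their differences was 0.20 without SCF and -0.15 with it. The highest were Itgae, an integrin chain that binds E-cadherin, at a mean difference of 3.54, the chemokine receptor gene Ccr2 at 2.88, the surface protease gene Adam8 at 2.81 and the chemokine receptor gene Ccr7 at 2.47. The lowest were Sirpa at -2.42, the collagen receptor chain gene Itga1 at -2.15, the interleukin 5 receptor chain gene Il5ra at -2.04 and the shared cytokine receptor chain gene Il6st at -1.90. Sirpa encodes the receptor of CD47, and the pair thus went in opposite directions, Sirpa at 2.20 and 2.11 in Del417-419insY and at -0.31 and -0.22 in D816V cells.

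Marker lists of other cell types also differed between the lines. Mast cell markers, of which 8 of 10 were in the table, had mean relative levels of -1.25 and -1.82 in Del417-419insY and of 0.80 and -0.18 in D816V cells without and with SCF; 6 were called higher and 1 lower. The 3 measured of 7 dendritic cell genes, Itgax, Ccr7 and Cd74, averaged -0.88 and -0.82 against 0.98 and 0.82. Of the 7 monocyte and macrophage markers only Cd68 and Lyz2 were in the table, and Lyz2 was at -0.86 on average, opposite in sign to Cd68. Both measured basophil genes of 5, Fcer1a and Mcpt8, were called higher, and Fcer1a is counted among the mast cell markers too. The 5 measured of 7 megakaryocyte genes averaged 0.06 and 0.18 in Del417-419insY and -0.99 and -1.37 in D816V cells, and 4 of them, Cd9 included, were called lower. The fifth, Itgb3, was called higher, with a mean difference of 2.26. All 4 measured erythroid genes of 6 were called lower. Beside these counts, limma called 17.9% of all genes higher and 24.7% lower. Among the 9 B cell genes only Cd72 was in the table. The part of these cell types in the differences of the CD genes was not tested, and with relative values no marker can be said to be at 0.

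Added SCF was accompanied by smaller differences than those between the lines. With SCF 1 of the 27 genes was 2-fold or more lower in Del417-419insY cells, against 0.547% of all genes, and none was 2-fold or more higher, against 0.328%. In D816V cells none reached 2-fold in either direction, against 0.328% of all genes higher and 1.31% lower. These shares are so low that counts of 0 and 1 do not stand apart from them. How long the cells without SCF were cultured is not stated in the sources used here, and culture time cannot be told apart from SCF. The limma fit called 0 of the 27 genes and 0 of all genes for SCF; 6 of the 27 and 1186 of all genes had an unadjusted p under 0.05.

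The gene past 2-fold was Cd300lf, 2.14-fold lower with SCF in Del417-419insY cells and 1.39-fold lower in D816V cells. The other genes lower with SCF in both lines by over 0.30 were Cd1d1 (-0.45 and -0.47), Cd300c2 (-0.33 and -0.48) and Cd244a (-0.37 and -0.36). Cd160 was higher in both (0.43 and 0.39), as was Cd247 (0.30 and 0.53). These 6 genes had the unadjusted p under 0.05 in the fit. Cd55 and Cd81 hardly differed, at 0.01 and 0.02, and at -0.17 and -0.12.

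In the other direction of comparison, 10 of 27 genes were higher with SCF in Del417-419insY cells and lower in D816V cells, beside 22.7% of all genes. The reverse was seen in 3 genes, beside 738 of all 6404 genes. Opposite signs were therefore seen in 13 of 27 genes, or 48.1%, beside 34.3% of all genes. After other scalings 11 to 12 of 27 had them, beside 31.2% to 32.4% of all genes. Genes higher with SCF in Del417-419insY cells and lower in D816V cells then numbered 7 to 10, beside 16.2% to 17.7% of all genes. In this order of lines Cd200r1 differed by 0.86 and -0.27, Cd69 by 0.55 and -0.83, Cd200r4 by 0.50 and -0.67, and Cd93 by 0.53 and -0.28. Each of these 4 genes was among those higher in D816V cells. Their narrower gap with SCF follows from these signs and is no further observation. Cd68 was the reverse, at -0.31 and 0.74. Cd7 and Cd82 were higher with SCF in Del417-419insY cells, by 0.75 and 0.67, and nearly level in D816V cells, at 0.01 and 0.09. No test of these opposite signs was possible, since the fit uses them as its error term.

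**Figure D4:**
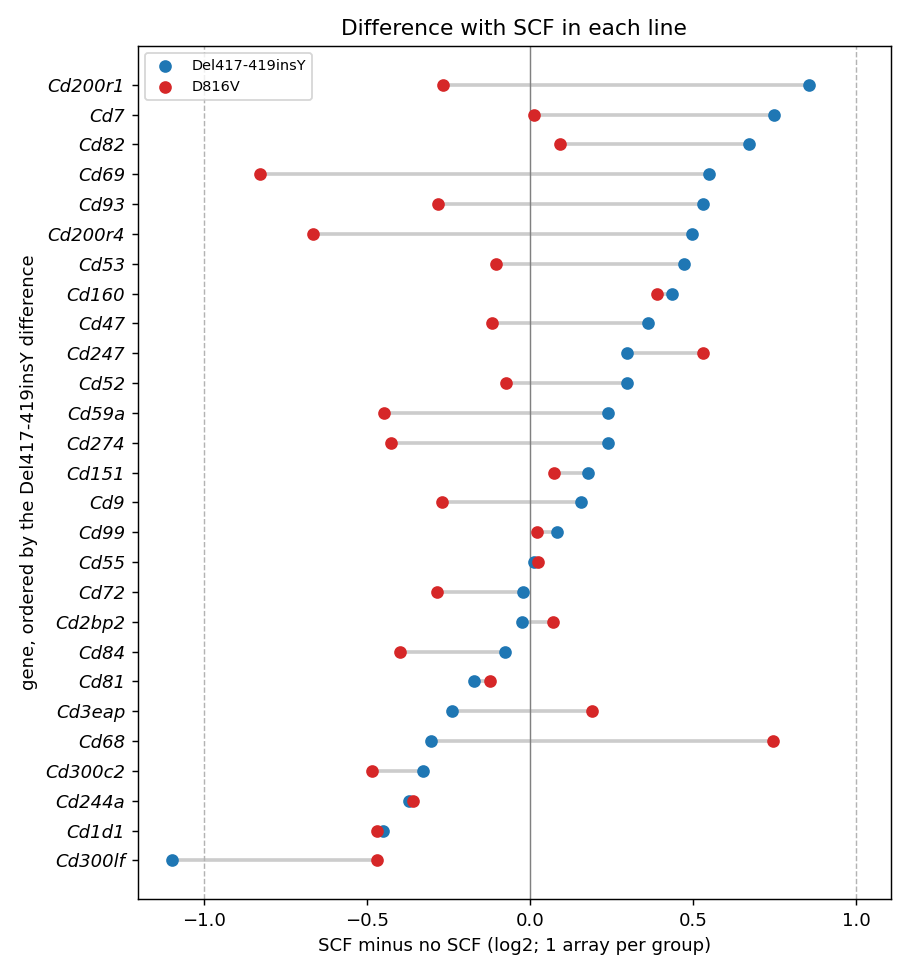
Difference with SCF for each of the 27 genes in Del417-419insY (blue) and D816V cells (red), in log2 units, with genes ordered by the Del417-419insY value and dashed lines at 2-fold. Only Cd300lf in Del417-419insY cells crosses a dashed line, and Cd69, Cd200r1 and Cd200r4 have points far apart on either side of 0.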

How the data were processed

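RNA of 4 EML cultures was hybridised to 1 Affymetrix array each. The deposited log2 values were made by the authors with RMA, per the submitters' processing notes; base 2 is taken from RMA and not stated. Of the array's 45101 probe sets, by the design text, 10861 are in the table; how they were chosen is not stated in the sources used here, and one that favoured variable probe sets would inflate the shares of genes past a threshold. Probe sets with 1 platform symbol (9633) were averaged per gene; 264 had several symbols and 964 none. Symbols of all 27 genes matched RefSeq (GRCm38.p6) by gene ID. Signal over background could not be examined.

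Differences were taken as D816V minus Del417-419insY within a condition, and as SCF minus no SCF within a line. The fit was limma 3.58.1 in R 4.3.3 (lmFit, eBayes, two-sided, Benjamini-Hochberg over 6404 genes), with 1 residual degree of freedom and a prior of 4.1. It was also run on simulated data with independent noise, which cannot show the spread between repeat arrays or populations. Nothing in the labels names repeat cultures. Members and lists were chosen with earlier results of these data known. All 27 genes are named; of the other CD antigens the 4 highest and 4 lowest were. Motifs were chosen after the values were seen. Alternatives were other scalings, probe set rules, a filter, a 1.5-fold limit and other limma settings.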

Additional observations from a re-analysis of the deposited data

Results flagged for a closer look

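With SCF 5 of the 27 genes went in opposite directions in the lines by 1.2-fold or more each. The share of all genes past this limit was not counted, so 5 cannot be called many or few. Opposite signs of any size were seen in 34.3% of all genes. The difference of Cd200r4 was 0.496 in Del417-419insY cells but -0.666 in D816V cells. In the same order Cd93 differed by 0.529 and -0.282, Cd69 by 0.549 and -0.83, and Cd200r1 by 0.855 and -0.269. Cd68 was the reverse, at -0.305 and 0.744. These values rest on 1 array per group, and the difference between the lines was not tested. Under other scalings Cd200r4, Cd69 and Cd68 kept opposite signs, while the D816V difference reached 0.06 for Cd93 and 0.08 for Cd200r1, above 0.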

How the results depend on the processing

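Each gene past 2-fold kept its direction under every scaling, probe set rule and filter in which it was measured. Genes 2-fold higher in D816V cells in both conditions numbered 9 to 10 under other scalings and probe set rules. Of all genes 5.15% to 5.72% then were. At the 1.5-fold limit 10 were higher, beside 9.6% of all genes. The count 2-fold lower was 1 after cyclic loess, quantile normalization and median centring alike, without Cd1d1, beside 2.86% to 3.64%. At 1.5-fold 4 were lower, beside 10.9% of all genes. Leaving out probe sets under the 25th percentile of mean level removed 10 of the 27 genes. Of those kept 5 were 2-fold higher, beside 5.14% of all genes kept, and limma called 7 higher, beside 21.4%. The median difference without SCF was then 0.38. This filter says nothing about expression or stability here: each probe set has its own zero, and Cd55, Cd81, Cd93, Cd200r1 and Cd200r4 are left out for the low Del417-419insY values that make up their difference. The median difference with SCF was 0.51 after cyclic loess and 0.46 after centring; these scalings moved the median of all genes by 0.18 and 0.15, and quantile normalization by 0.14. At 1.5-fold, 3 genes were higher with SCF in Del417-419insY cells, and 1 higher and 2 lower in D816V cells, beside 2.14%, 2.55% and 6.45% of all genes. Calls by limma were otherwise 10 to 16 higher and 4 to 6 lower, the 4 with that filter. The shares of all genes moved as well, from 10.8% to 26.9% called higher and from 14.3% to 26.5% lower. Without the SCF term Cd2bp2, Cd47, Cd7 and Cd59a were not called. No paired analysis was possible because each group has 1 array, and no replicate could be left out. The number of arrays limits the precision.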
